A study of Mus musculus with 12 samples.

Results

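The genes described here are 9 genes of the B cell receptor, of its co-receptors and of B cell gene control: Cd79a, Cd79b, Ms4a1, Cr2, Cd22, Fcer2a, Blk, Pax5 and Pou2af1. Each was matched to the probe sets that carry its symbol alone in the platform annotation, which gave 13 probe sets, and the brightest of a gene's probe sets, by its mean over the 12 arrays, stands for it here. All 9 were found among 18193 measured genes. Their signals were compared between 6 spontaneous lung tumours of untreated B6C3F1 mice and 6 normal lungs, 1 array each. All mice were 2 years old and came from a long-term bioassay of the National Toxicology Program. B6C3F1 is the hybrid of the C57BL/6 and C3H strains, and the labels record no treatment of either group. Each sample was frozen whole tissue, so fewer B cells and less RNA per B cell cannot be told apart. Nothing in the labels ties each sample to an animal of its own, so p-values measure only the spread between these samples.

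B cells recognise antigen through membrane immunoglobulin held in a complex with the signalling chains that Cd79a and Cd79b encode, and Src-family and Syk kinases carry the signal inward. The complement receptor encoded by Cr2 lowers the threshold of that signal, the sialic acid binding lectin encoded by Cd22 raises it, and Pax5 is the factor that holds cells in the B lineage. When a B cell turns into an antibody-secreting plasma cell it shuts down Pax5 and most receptor genes and turns on Prdm1, Xbp1 and immunoglobulin secretion. In the mouse lung, B cells are found scattered, in blood and, with age or chronic stimulation, in lymphoid clusters beside the airways and vessels.

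RefSeq (GRCm38.p6) windows from 250 bases before to 50 bases after the annotated start were at hand for 6 of the 9 genes. The sequences of 3 are shown because these genes differ most in how they varied: Cd79a had the largest difference between the groups and was far higher in normal lung 3 than in the other normal lungs, Cr2 also differed but was not high in that lung, and Cd22 was high in that lung with no difference past the threshold. Capitals mark 2 motifs of B lineage factors, the E box bound by E2A (CAGGTG, searched on both strands, so CACCTG in the strand shown is a match too) and the palindrome of EBF1 (TCCC and GGGA parted by 2 bases of any kind). The E box occurs in 20.2% of 32851 promoter windows of this length and the EBF1 motif in 0.904%. The windows are chr7:24897247-24897546 on the plus strand for Cd79a, chr1:195176670-195176969 on the minus strand for Cr2 and chr7:30878979-30879278 on the minus strand for Cd22, all 5′ to 3′ along the gene.
Cd79a: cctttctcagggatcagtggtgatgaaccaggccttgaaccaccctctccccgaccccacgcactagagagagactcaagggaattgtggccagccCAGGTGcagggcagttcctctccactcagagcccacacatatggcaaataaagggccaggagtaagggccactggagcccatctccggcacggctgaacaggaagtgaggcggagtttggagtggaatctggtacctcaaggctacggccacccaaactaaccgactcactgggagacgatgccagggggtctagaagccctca
Cr2: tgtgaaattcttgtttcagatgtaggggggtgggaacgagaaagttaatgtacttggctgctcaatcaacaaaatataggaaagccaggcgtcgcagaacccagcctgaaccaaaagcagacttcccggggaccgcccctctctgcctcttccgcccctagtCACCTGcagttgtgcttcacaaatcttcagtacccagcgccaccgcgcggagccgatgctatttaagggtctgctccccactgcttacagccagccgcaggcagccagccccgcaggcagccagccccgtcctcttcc
Cd22: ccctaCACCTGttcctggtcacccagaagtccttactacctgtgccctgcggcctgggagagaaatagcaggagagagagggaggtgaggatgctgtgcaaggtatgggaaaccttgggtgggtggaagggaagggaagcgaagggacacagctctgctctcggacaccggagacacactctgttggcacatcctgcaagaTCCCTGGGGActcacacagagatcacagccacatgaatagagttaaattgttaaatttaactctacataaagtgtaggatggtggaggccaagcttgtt
Counted from the start site, the E box lies at -154 to -149 in Cd79a, -88 to -83 in Cr2 and -245 to -240 in Cd22, and the EBF1 motif of Cd22 lies at -49 to -40. The 6 genes had 8 windows in all. The E box was in 4 of them, these 3 and 1 window of Fcer2a, and the EBF1 motif in 1. The windows of Pax5 and Pou2af1 held neither. The octamer ATGCAAAT, which binds the Oct factors that the protein of Pou2af1 assists, and the PU.1 motif GAGGAAGT, on either strand, were in none of the windows of these 6 genes and in 1.74% and 3.2% of all windows. These are matches of letters and say nothing of binding in these samples.

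Of the 9 genes, 4 were lower in tumours (Cd79a, Ms4a1, Blk and Cr2) and 0 were higher at an adjusted p under 0.05 (limma, Benjamini-Hochberg over all probe sets), where 17.5% of all genes were called lower and 12.2% higher. At an unadjusted p under 0.05 both limma and the exact permutation test gave 5 lower and 0 higher, the added gene being Pax5. The share of all genes lower in limma at that looser threshold is not given here, and it is at least 17.5%. None of the 9 had its groups fully apart, where every tumour was below every normal lung for 11.8% of all genes and above for 6.77%. Differences are given as tumour minus normal, in units of log2(signal + 16), and their median was -0.92, against -0.08 over all genes. The means of all 9 were lower in tumours, from -2.37 for Cd79a to -0.06 for Fcer2a. The count was 2 after quantile normalization, after median centring, without tumour 4 and without normal lungs 2 and 4. Lower calls over all genes, 3176 in the main fit, were then 2913, 2341, 3043 and 2437. The count of the 9 was 1, Cr2, without the 4 tumours that carry the Y-linked transcript Eif2s3y, which leaves 2 tumours. It was also 1, Cr2, with that transcript as a covariate. Lower calls over all genes were 2532 and 2167 in those fits. In those fits the Cd79a difference was -1.81 and -2.12, that of Blk -1.25 and -1.43 and that of Ms4a1 -1.08 and -1.35, and the SE was wider (0.86 in both for Cd79a).

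**Figure D1:**
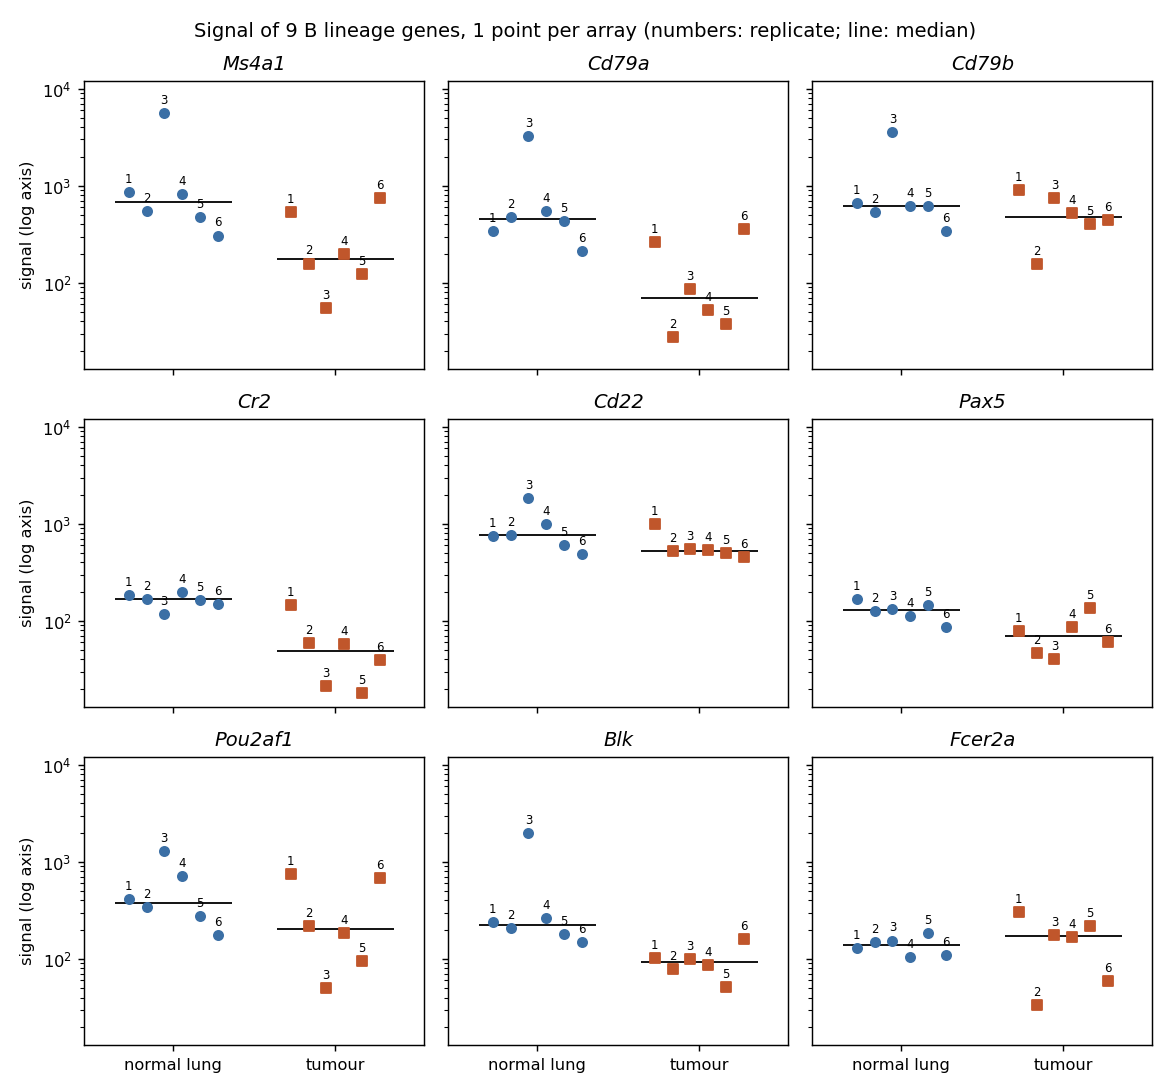
Signal of each of the 9 genes on every array, on a log axis, with 6 normal lungs (blue circles) and 6 tumours (orange squares), the replicate number beside each point and a line at the group median. Normal lung 3 stands above the other normal lungs for Cd79a, Cd79b, Ms4a1, Blk, Cd22 and Pou2af1, and tumours 1 and 6 are the highest tumours for Cd79a, Ms4a1 and Pou2af1.

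Before the values are read, some arrays need to be known. Eif2s3y was at 740 or more in tumours 1, 2, 3 and 5 and at 27.4 or less on the other 8 arrays. Xist, also sex-linked, ran the other way, at 109.3 or less in tumours 1, 2, 3 and 5. It was at 7877 to 11265 in normal lungs and at 12621 and 10184 in tumours 4 and 6. Sex-linked transcripts are thus not balanced between the groups. Differences tied to sex and to tumour cannot be told apart in tumours 1, 2, 3 and 5. Normal lungs 2 and 4 carried liver transcripts, with the albumin gene Alb at 13843 and 13722 against 2069 or less in the other normal lungs and 9.89 to 4901 in tumours, highest in tumour 5. Normal lung 1 carried neutrophil transcripts, with a summed signal of 7 neutrophil genes of 178680 against 3073 to 22041 in the other normal lungs. The part of these in the results was not tested beyond the counts without the arrays. All 8 lung genes checked, such as the surfactant gene Sftpc and the club cell gene Scgb1a1, were at 502 or more on every array, and the vessel markers Cldn5 and Pecam1 were lower in tumours (-3.97 and -3.09). Per array the median signal was 151 to 164 in normal lungs and 126 to 149.8 in tumours, and the number of arrays limits the precision.

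The 2 signalling chains of the receptor did not give the same result. Cd79a signal in normal lungs was 212 at the lowest, 452 at the median and 3291 at the highest, and in tumours 27.3, 69.2 and 362. All 6 tumours were below the normal median and 4 were below every normal lung, but tumours 1 and 6, at 266 and 362, lay inside the normal range. Cd79a fell by 2.37 ± 0.64 on the log2 scale (difference ± SE, n = 6 per group, limma adjusted p = 0.0127), which is 5.16-fold lower in tumours. Without normal lung 3 the difference was -1.86 (limma adjusted p = 0.0212). Leaving out any one array kept its call, with limma adjusted p up to 0.0315.

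Cd79b, its partner in the same heterodimer, had signals of 339, 615 and 3611 in normal lungs and 157, 480.3 and 911 in tumours (lowest, median and highest). The groups overlapped: 1 tumour lay below every normal lung and tumour 1, at 911, was above all normal lungs but normal lung 3. The difference was -0.66 with a 95% interval of -1.70 to 0.39 (n = 6 per group, limma adjusted p = 0.379), and it was -0.21 without normal lung 3 and -0.36 without tumour 2. Tumour 3 had a Cd79b signal of 754, above the normal median, while its Cd79a signal of 85.8 was below every normal lung. Whether the differences of the 2 chains differ from each other was not tested.

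Ms4a1 encodes CD20, a surface protein of mature B cells that plasma cells lack. Its signal was 307, 686 and 5620.1 in normal lungs and 54.5, 178 and 743 in tumours (lowest, median and highest). Again 4 tumours were below every normal lung, and tumours 1 and 6, at 531 and 743, were not. Ms4a1 fell by 1.88 ± 0.65 (SE, n = 6 per group, limma adjusted p = 0.0485), close to the threshold. This call was lost without any one of normal lungs 1 to 5 or of tumours 2 to 5, with limma adjusted p of 0.0523 to 0.105, while over all 12 such omissions the difference lay between -2.23 and -1.34. A dimmer probe set of the gene differed the same way without passing (-1.17 ± 0.59, SE, n = 6 per group, limma adjusted p = 0.175).

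Cr2 encodes CD21, the receptor for complement fragments on mature B cells and on follicular dendritic cells. Its signal was low and even in normal lungs, at 117, 167 and 198 (lowest, median and highest), and 18.1, 48.4 and 145 in tumours. In tumours 2 to 6 it was below every normal lung, and tumour 1, at 145, lay inside the normal range. Cr2 fell by 1.50 ± 0.34 (SE, n = 6 per group, limma adjusted p = 0.00401), 2.82-fold. Among the 9 genes it is the one whose call held under all 25 alternative limma settings, with adjusted p of 3.15e-04 to 0.0393. Normal lung 3, the highest normal lung for Cd79a, Cd79b, Ms4a1 and Blk, was the lowest for Cr2, and its SD among normal lungs (0.24 on the log2 scale) was the smallest of the 9. Its signals are dim enough for the offset to shrink the log2 difference.

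Cd22, an inhibitory lectin that recruits phosphatases to the receptor, was at 486, 759 and 1830.2 in normal lungs and 455, 527 and 1001 in tumours (lowest, median and highest). Tumours 2 to 6 lay together between 455 and 548, while tumour 1 reached 1001. The groups overlapped and the difference of -0.52 did not pass (95% interval -1.10 to 0.07, n = 6 per group, limma adjusted p = 0.1998). It was -0.29 without normal lung 3, and the second probe set of Cd22 gave -0.04.

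Fcer2a encodes CD23, the low affinity receptor for IgE, found on follicular B cells. Its signal was 105, 139 and 184 in normal lungs and 33.3, 172 and 301 in tumours (lowest, median and highest). Tumours lay on both sides of the normal range, 2 above it (tumours 1 and 5) and 2 below it (tumours 2 and 6). The difference was -0.06 with a 95% interval of -0.90 to 0.77 (n = 6 per group, limma adjusted p = 0.937), and its sign turned under 8 alternatives.

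Blk, a Src-family kinase of B cells that also occurs in plasmacytoid dendritic cells and some T cells, had signals of 150.2, 223 and 1975 in normal lungs and 51.6, 93.2 and 159.7 in tumours (lowest, median and highest). Only tumour 6, at 159.7, reached the normal range, and 5 tumours were below every normal lung. Blk fell by 1.56 ± 0.49 (SE, n = 6 per group, limma adjusted p = 0.0309), 2.94-fold. Without normal lung 3 the fall was smaller, at -1.03, with a narrower error (SE 0.26, limma adjusted p = 0.0105). The call was lost without tumour 4 or tumour 5, with limma adjusted p of 0.0524 and 0.0665.

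Pax5, which holds cells in the B lineage, was dim: its signal was 86.4, 129 and 169 in normal lungs and 40.8, 69.3 and 136 in tumours (lowest, median and highest). Of the tumours 4 were below every normal lung, and tumours 4 and 5, at 86.6 and 136, were not. The difference of -0.73 ± 0.27 (SE, n = 6 per group) did not pass (limma adjusted p = 0.0605). It passed without normal lung 6 or tumour 5, with limma adjusted p of 0.0494 and 0.0177. The second probe set of Pax5 was dimmer still, with a median of 24.3 in normal lungs and 14.7 in tumours.

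Pou2af1 encodes the co-activator of Oct factors known as OCA-B, which is used both in B cells and in plasma cells. Its signal was 178, 380 and 1294 in normal lungs and 50.7, 201 and 752 in tumours (lowest, median and highest). Tumours 1 and 6, at 752 and 679, were above 5 and 4 of the normal lungs, while tumours 3 and 5, at 50.7 and 94.4, were below all of them. The difference of -0.92 did not pass (95% interval -2.17 to 0.33, n = 6 per group, limma adjusted p = 0.297), and it was -0.61 without normal lung 3 and -0.55 without tumour 3.

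**Figure D2:**
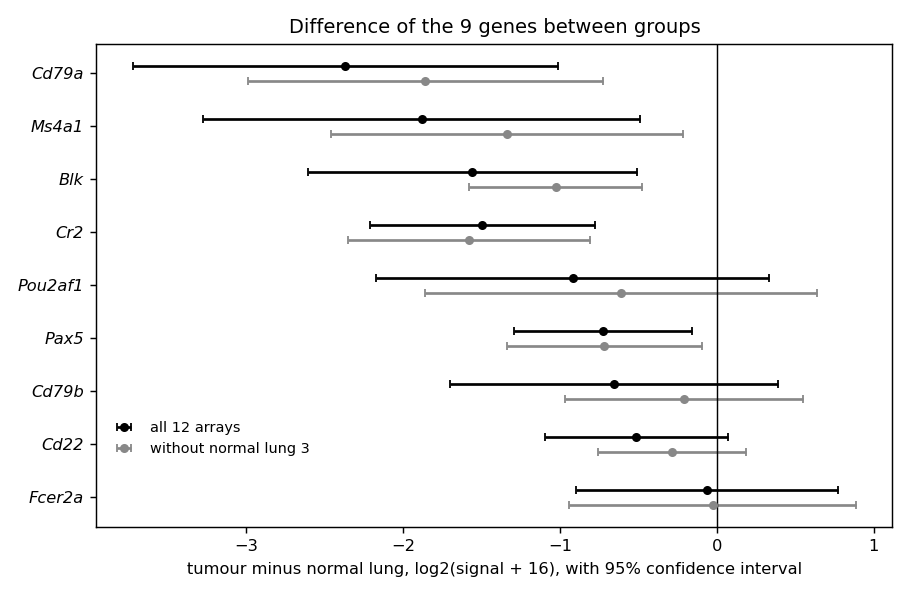
Difference between tumours and normal lungs of the 9 genes on the log2(signal + 16) scale with its 95% confidence interval from the limma fit, not adjusted for multiple tests (6 tumours; 6 normal lungs in black, 5 in grey without normal lung 3). Cd79a is lowest at -2.37 and moves to -1.86 without normal lung 3, Cr2 moves from -1.50 to -1.58, and Fcer2a stays near 0.

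The spread among normal lungs came mostly from 1 array. Normal lung 3 was the highest normal lung for 6 of the 9 genes (Cd79a, Cd79b, Ms4a1, Cd22, Blk and Pou2af1), where it was the highest for 18.9% of all genes. Its signal was 6.45 times that of the next normal lung for Ms4a1, 6.06 times for Cd79a, 5.40 times for Cd79b and 7.48 times for Blk. These 4 genes stood apart in that lung by Dixon's criterion on the log2 scale, where 0.841% of all genes did. The factor was 1.82 for Cd22 and 1.79 for Pou2af1. For Cr2, Pax5 and Fcer2a normal lung 3 was below the highest normal lung, at 0.591, 0.777 and 0.840 times the highest of the others.

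Measured as SD of log2(signal + 16) over 6 normal lungs, Ms4a1 (1.44), Cd79a (1.33), Blk (1.33) and Cd79b (1.15) varied more than 98.8% to 99.5% of all genes. Without normal lung 3 these SDs were 0.60, 0.51, 0.30 and 0.38. The other extreme was Cr2 (0.24), Fcer2a (0.28) and Pax5 (0.29), near the median SD over all genes of 0.28. The highest normal lung was 18.3 times the lowest for Ms4a1, 15.5 times for Cd79a, 13.1 times for Blk and 1.69 times for Cr2. At the low end, normal lung 6 had the lowest signal of the normal lungs for 7 of the 9 genes.

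Tumours varied in another way. The SD among tumours was larger than that among normal lungs for 4 of the 9 genes, Cr2 (0.82), Pax5 (0.52), Fcer2a (1.03) and Pou2af1 (1.41), and smaller for Blk (0.45). Over all genes the SD was larger among normal lungs in 30.6%, against 5 of the 9 here. Those 5 rest on normal lung 3. Without it the SD among normal lungs was below that among tumours for each. The values were 0.60 and 1.28 for Ms4a1, 0.51 and 1.29 for Cd79a, 0.38 and 0.85 for Cd79b. For Cd22 they were 0.388 and 0.398, and for Blk 0.30 and 0.45. The share over all genes without that lung is not given here. Tumour 1 was the highest tumour for 5 genes (Cd79b, Cr2, Cd22, Pou2af1 and Fcer2a), where it was so for 14% of all genes, and tumour 6 for 3 (Cd79a, Ms4a1 and Blk). Tumour 2 was below every normal lung for 7 of the 9 genes and tumour 1 for 2, Blk and Pax5. Of the high tumours 1 and 6, tumour 1 carried the Eif2s3y transcript, as did tumours 2, 3 and 5, and tumour 6 did not. The part of sex in the spread among tumours was not tested.

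To see how far each gene followed the others, log2 values were taken relative to the group mean, and each gene was correlated with the mean of the other 8 over the 12 arrays, as a description of arrays that share normal lung 3. Pearson's r was 0.88 for Ms4a1, 0.88 for Cd79a, 0.84 for Cd22, 0.78 for Cd79b, 0.78 for Pou2af1 and 0.77 for Blk. It was 0.20 for Cr2, 0.17 for Fcer2a and 0.16 for Pax5. Outside the 9 genes, 8 genes among those above the median signal followed the mean of the 9 most closely, with r of 0.87 to 0.96. They were Bank1, Ikzf3, Cxcr5, Mzb1, H2-Ob, H2-Oa, Lrmp and LOC664787. Bank1 encodes a B cell scaffold protein, Ikzf3 the lymphoid factor Aiolos, Cxcr5 the receptor that guides B cells into follicles, and H2-Oa and H2-Ob the chains of a class II chaperone of B cells. Normal lung 3 was the highest normal lung for all 8, with Bank1 at 2088 against 508 in the next. The 8 were picked for following a mean that is itself highest in that lung, so this adds no separate evidence.

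**Figure D3:**
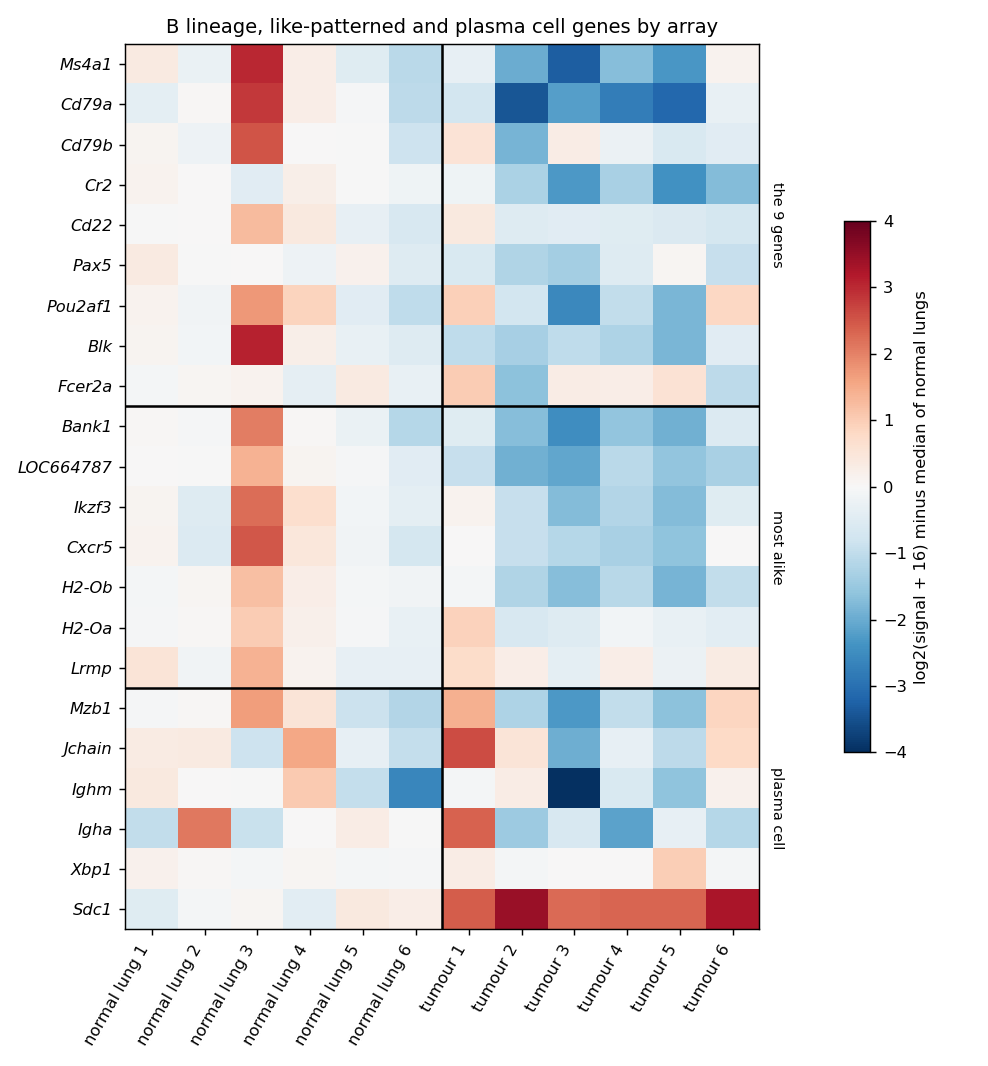
Heat map of log2(signal + 16) minus the median of the normal lungs for each array (columns), with the 9 genes at the top, 7 of the 8 genes most alike in the middle and plasma cell genes, Mzb1 among them, at the bottom. Colours end at -4 and 4, and values beyond are drawn at the end colour. The red column of normal lung 3 spans most B lineage rows but not Cr2, Pax5 or Fcer2a, nor the rows of Jchain, Ighm, Igha, Xbp1 and Sdc1. Tumour 1 is red for Mzb1, Jchain and Igha.

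Other B cell identity genes gave falls and no rises. Of 20 measured, 10 fell and 0 rose in limma at an adjusted p under 0.05, beside 17.5% and 12.2% of all genes at that threshold. The median difference was -1.16. At an unadjusted p under 0.05 in limma the counts were 15 and 0. The share of all genes lower at that threshold is not given here, and it is at least 17.5%. Vpreb3, whose product binds immunoglobulin heavy chain in developing B cells, went from 503 to 50.3 at the median (-2.94 ± 0.48, SE, n = 6 per group, limma adjusted p = 3.32e-04), with every tumour below every normal lung. Cd40, the receptor for T cell help that macrophages and dendritic cells also carry, went from 398 to 129 (-1.52 ± 0.17), and Bach2, a factor that restrains plasma cell formation and is active in T cells too, from 1334 to 349.8 (-1.90 ± 0.28). The arrays of both were apart as well. Other genes that fell were Ebf1 (-1.21), a factor that specifies the lineage, Cd37 (-1.81), H2-Ob (-1.36), Ikzf3 (-1.32) and Fcrla (-1.50). Spib (-1.69), Cxcr5 (-1.11) and the receptor for the survival factor BAFF, Tnfrsf13c (-0.64), did not pass (limma adjusted p of 0.0610 to 0.268). Normal lung 3 was the highest normal lung for 17 of these 20 genes, but not for Bach2, Irf8 or Cd24a. The count of falling identity genes ranged from 6 to 12 over the alternatives, where lower calls over all genes ranged from 2167 to 3342.

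Genes of receptor signalling outside the 9 showed no shared direction. Over all genes 17.5% were called lower and 12.2% higher. Of 15 measured genes of the activating arm 3 fell and 1 rose, with a median of -0.22, a share close to that over all genes for falls. Bank1 (-1.57 ± 0.46), Nfatc1 (-1.20 ± 0.22) and Rasgrp3 (-2.43 ± 0.24), an activator of Ras that endothelial cells also use, fell, and Malt1 (2.03 ± 0.33), a protease of the NF-kB path, rose. Syk (-0.22), Btk (0.18), Blnk (-0.29) and Plcg2 (-0.13), the kinases, adaptor and lipase next to the receptor, did not pass, and macrophages or other myeloid cells express several of them. Blnk was at 2319.6 in normal lung 3 against 604 in the next normal lung. Of 9 genes of the inhibitory arm 2 fell, the phosphatase gene Inpp5d (-1.14 ± 0.15) and the lectin gene Siglecg (-1.28 ± 0.42), and 1 rose. The riser was Fcgr2b, an inhibitory Fc receptor of B cells and macrophages, from 752 to 3833 at the median (2.39 ± 0.27, SE, n = 6 per group, limma adjusted p = 1.18e-05). Of 8 macrophage genes 4 rose and 1 fell, and their summed signal was 10487 to 18230.4 in normal lungs and 20465 to 33691 in tumours. The part of macrophages in the rise of Fcgr2b was not tested.

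**Figure D4:**
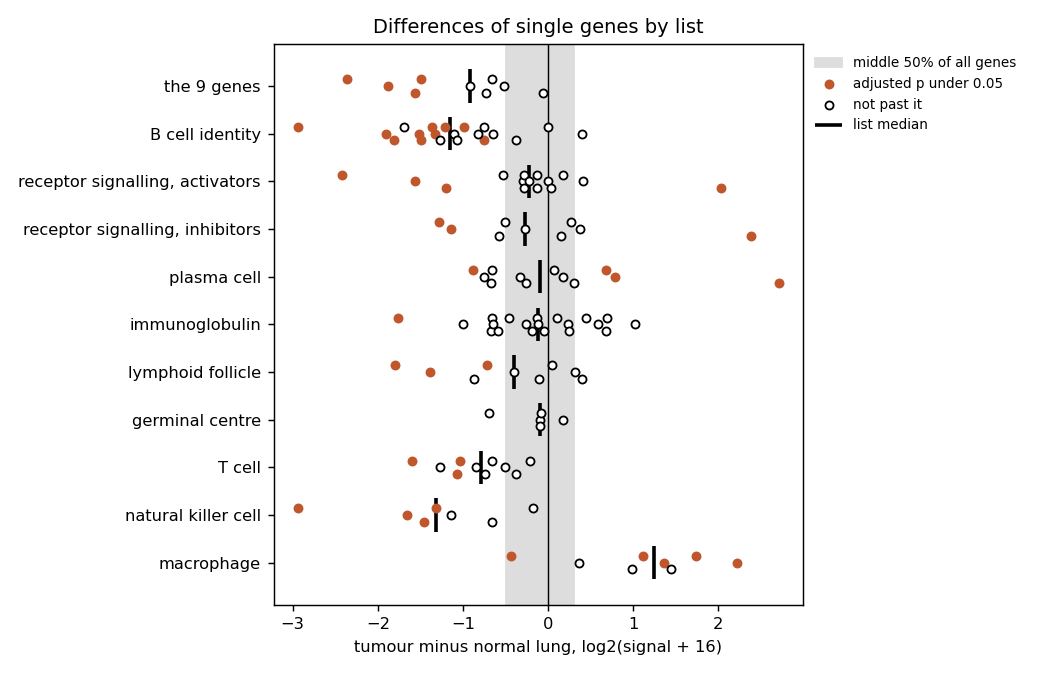
Tumour minus normal lung differences of single genes on the log2(signal + 16) scale, by list, with filled points for adjusted p under 0.05, open points for the rest, a bar at the list median and a grey band over the middle 50% of all genes. The 9 genes and B cell identity genes lie mostly left of the band (medians -0.92 and -1.16), and plasma cell and immunoglobulin genes are centred near it (medians -0.10 and -0.12).

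Of 12 plasma cell genes measured, 1 fell and 3 rose, beside 17.5% and 12.2% of all genes, with a median of -0.10. Sdc1, which encodes the plasma cell surface proteoglycan CD138 but is also made by epithelial cells, rose from 2277 to 11866 at the median (2.71 ± 0.23, SE, n = 6 per group, limma adjusted p = 1.02e-06). Sec11c (0.78 ± 0.17) and Edem1 (0.68 ± 0.20), genes of protein secretion and quality control that act in every secretory cell, were the other risers. Prdm1, the factor that drives plasma cell formation, fell (-0.88 ± 0.19), and Xbp1, its partner in secretion, did not pass (0.17). Genes more restricted to antibody-forming cells did not differ past the threshold: Jchain, the joining chain of IgM and IgA, differed by 0.07, Mzb1, a chaperone of IgM assembly, by -0.67, and Tnfrsf17, the receptor BCMA, by -0.76 (limma adjusted p of 0.211 to 0.952). Tnfrsf17 was dim, with a median of 44.2 in normal lungs and 19.6 in tumours, so its lack of a call says little.

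These secretory genes varied widely in both groups. Jchain was 2032 at the lowest, 4036 at the median and 11440.5 at the highest in normal lungs, and 1000.3, 4384 and 23858 in tumours, with tumour 1 the highest of all arrays. Normal lung 3, the highest in Cd79a and Ms4a1, had a Jchain signal of 2206, below 4 of the other normal lungs. Mzb1, in contrast, was highest in normal lung 3 (3058), followed by tumours 1 (2565) and 6 (1715), the order seen among tumours for Pou2af1.

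The annotation tied 43 probe sets to a single immunoglobulin symbol, 20 symbols in all, and another 13 to several. Of the 20 genes 1 was called lower and 0 higher, beside 17.5% and 12.2% of all genes, with a median of -0.12. The lower one was Ighv14-2, a heavy chain variable segment (-1.77 ± 0.30, SE, n = 6 per group, limma adjusted p = 4.13e-04). At the level of single probe sets 1 fell and 1 rose, the riser being a dimmer probe set of Ighm (2.02 ± 0.63, SE, n = 6 per group, limma adjusted p = 0.0288). It was highest in tumour 1 at 11256 where the normal lungs reached 556. Probe sets of Ighm did not agree. Differences of 2.54, 2.35 and 2.13 in further dimmer ones did not pass (limma adjusted p of 0.0512 to 0.139), and these too were highest in tumour 1. The rest lay between -0.83 and 0.65, the brightest at -0.67. The brightest Ighm probe set, for the heavy chain of IgM, was 3742, 22689 and 46434 in normal lungs and 1118, 18136 and 27628 in tumours (lowest, median and highest). Igha, for the heavy chain of IgA, was 3260.1, 6426 and 27846 in normal lungs and 1436, 3512 and 32886 in tumours. Normal lung 2 and tumour 1 were the highest for Igha, normal lung 4 and tumour 2 for Ighm, and over the 43 probe sets normal lung 4 was the highest normal lung for 21, normal lung 3 for 5, and tumour 1 the highest tumour for 26. Immunoglobulin segments share sequence, so single symbols here are uncertain.

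Genes of lymphoid follicles gave 3 falls and 0 rises among 9 measured, beside 17.5% and 12.2% of all genes, with a median of -0.40. Tnfsf13b, the B cell survival factor BAFF, went from 1094 to 318 at the median (-1.80 ± 0.23, SE, n = 6 per group, limma adjusted p = 4.18e-05) and its groups did not overlap. Ltb, a cytokine that lymphocytes use to organise lymphoid tissue, fell (-1.38 ± 0.39), and Madcam1 fell (-0.72 ± 0.25). Cxcl13, the follicular chemokine that attracts cells with Cxcr5, was 343, 667 and 1451 in normal lungs and 48.4, 494 and 848 in tumours, highest in normal lung 3 and lowest in tumour 3, and did not pass (-0.87, limma adjusted p = 0.311). Of 5 germinal centre genes 0 passed in limma in either direction (0 also at an unadjusted p under 0.05), and Mef2b, Gcsam and Rgs13 were dim.

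Other lymphocytes are given for comparison, beside 17.5% of all genes called lower and 12.2% called higher. Among 10 T cell genes there were 3 falls (median -0.79), and the summed signal was 1784 to 3236 in normal lungs and 855 to 2896 in tumours. Among 7 natural killer genes there were 4 falls (median -1.32), with a summed signal of 1659 to 4306 in normal lungs and 315 to 2164 in tumours. The tumour with the highest sum of both was tumour 2, the one that lay below every normal lung for 7 of the 9 B lineage genes. Normal lung 3 was the highest normal lung for 2 of the 10 T cell genes, Cd2 with 1152 against 356 in the next being one, and for none of the natural killer genes. Genes of plasmacytoid dendritic cells, which share Blk and Spib with B cells, fell in 1 of 6 cases, and that gene, Tcf4, is widely expressed. Siglech, the marker most restricted to these cells, was dim, at 90.3 or less in normal lungs and 102 or less in tumours. Among leukocytes at large, Ptprc, which encodes CD45, did not pass (-0.45), and 1 of 8 general leukocyte genes rose and 0 fell.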

How the data were processed

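RNA of 6 normal lungs and 6 spontaneous tumours was hybridised to Affymetrix arrays, 1 per sample. The authors deposited linear signal intensity, summarised with MAS5 per the submitters' processing notes (settings: not given in the sources used here). Arrays share a 2% trimmed mean of 500.0, and that scaling was kept. Titles gave groups and numbers.

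Without 64 controls, 45037 of 45101 probe sets were tested: 34945 with 1 platform symbol, 932 with several, 9160 unnamed here. log2(signal + 16) was fitted by limma 3.58.1 (R 4.3.3, intensity trend, no covariate), with two-sided Benjamini-Hochberg over all probe sets and a threshold of 0.05. Tested on simulated data (45037 probe sets, 200 of them changed), it recovered 85% of changes of 2 log2 units and 40% of changes of 1. The simulation drew independent normal noise with no array that stood apart. In the data far more was called, 17.5% of genes lower and 12.2% higher. These rates therefore do not measure the power for the data. Tables used Python 3.11.15.

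The text names the 9 genes, up to 3 genes of smallest adjusted p per other list and the 8 genes most alike; other names were chosen after their values were seen. Members, 17 other lists and alternatives (offset, scaling, filter, trend, weights, block, probe set rule, left-out arrays) were chosen with earlier results known. Counts not given above: of 6 dendritic genes 1 fell and 1 rose, and of 4 sex-linked genes 1 fell and 3 rose, beside 17.5% and 12.2% of all genes. Of 7 neutrophil genes 0 passed in limma (1 at an unadjusted p under 0.05), and of 5 liver genes 0 (1). Same-numbered samples were not treated as pairs. Their deviations correlated at -0.02 to 0.02 over 6 pairs, which cannot show whether they came from the same animal.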

Additional observations from a re-analysis of the deposited data

Results flagged for a closer look

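Within a group of 6 arrays, the gap from the highest or lowest array to its neighbour was set against the group's range on the log2 scale (Dixon's criterion), for the 9 genes in both groups. In 18 groups 5 arrays stood apart. Chance gives about 1 in 20 for independent groups of normally distributed values. The 9 genes share the same arrays and vary together, so that rate is no measure for these 18 groups. Normal lung 3 was far above the other normal lungs for Ms4a1 (5620.1 against 307 to 871), Cd79a (3291 against 212 to 543), Cd79b (3611 against 339 to 668) and Blk (1975 against 150.2 to 264). Tumour 1 was far above the other tumours for Cd22 (1001 against 455 to 548). The 4 values of normal lung 3 come from 1 sample. The cause was not tested.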

How the results depend on the processing

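The count of 9 genes called lower (4) was 3 with offset 64, array weights, the replicate block or the mean of a gene's probe sets, 4 with offset 1, without dim probe sets, without the intensity trend or with the brightest probe set taken on the log2 scale, and 5 in the unadjusted exact permutation test. It was 2 after quantile normalization, 2 after median centring and 2 without normal lungs 2 and 4, and 1 when the 4 Eif2s3y-bearing tumours were dropped or that transcript was a covariate. Lower calls over all genes were 3176 in the main fit and 2913, 2341, 2437, 2532 and 2167 in these fits, in that order. Leaving out 1 array gave 2 to 5 of the 9 genes, the lowest without tumour 4. None of the 9 genes was called higher under any of these alternatives. Over 25 limma alternatives the Cr2 call was lost in 0, Cd79a in 2 (-1.81 with adjusted p = 0.191 when the Eif2s3y-bearing tumours were dropped, and -2.12 with 0.126 under the covariate, with wider SEs than the main -2.37), Blk in 7 (differences of -1.25 and -1.43 in those fits) and Ms4a1 in 19, and Pax5 passed in 3 of 24, since the filter on dim probe sets removed it. The Fcer2a difference turned positive with offset 64 (0.010), quantile normalization (0.12), median centring (0.13), array weights (0.18), the mean of probe sets (0.14), and without 1 array (0.02 to 0.25, without normal lung 5, tumour 2 or tumour 6). Its range without 1 array was -0.28 to 0.25. Median centring moved the median over all genes from -0.08 to 0.11 and the share of calls that are higher from 41.1% to 59.9%; the median of the 9 genes was then -0.73. With the replicate block, which the labels do not support as a pairing, the count was 3, Ms4a1 being lost (adjusted p = 0.0983). Dim signals limit what can be seen for Cr2, Pax5 and Fcer2a. The causes were not tested.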
